A study of Mus musculus with 6 samples.

Results

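Skeletal muscle takes up fatty acids from the blood, carries them into mitochondria and burns them, and the genes of that route were examined here in soleus muscle of male mice with and without estrogen receptor beta. The list held 32 genes named for uptake, the carnitine shuttle, the beta-oxidation enzymes, the electron transfer flavoprotein and the uncoupling proteins. Its members were chosen by name and not by a cut on signal, but with earlier results of these data known. A member was included where a probe set of the array carried exactly 1 gene symbol in the array annotation, which gave 26 members on 34 probe sets, 25 of them bright enough on at least 1 probe set to be tested, out of 8251 genes on 10833 such probe sets. Acsl1, Cpt1b, Hadha, Acat1, Ucp2 and Acot2 had no such probe set and were not analysed here. Of these 26 members, 18 had 1 probe set and 8 had 2. Where a member had 2, the one with the higher mean over all arrays is called the first.

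The series asks how skeletal muscle differs between the sexes and what part the beta form of the estrogen receptor plays. Total RNA of soleus, a postural muscle rich in slow oxidative fibres, was hybridised to 6 arrays of 1 mouse design. The control group was 3 samples of male wildtype C57BL/6 mice, and the other group was 3 samples of male BERKO mice, named in the labels as knockouts of estrogen receptor beta (Esr2). The allele and strain of the knockout, the ages, and whether RNA of several mice was pooled are not given in the labels. It is also not stated there that samples are separate mice, so the spread between replicates may be technical in part. Replicate numbers below follow the order of deposit. Arrays of the same number have adjacent title numbers and share a title prefix, and the labels do not say whether this pairs mice. The titles carry 1 prefix on 4 arrays and another on the other 2, which are replicate 2 of each group, and the meaning of the prefix is not given.

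Values are linear signal intensities as deposited, set to a common level on each array, so amounts of RNA are compared only within a probe set. Brightness ranks and summed signals below describe the array's own scale, and a sum weighs bright probe sets most. Knockout was compared with wild type by limma on log2 values with a floor of 7.8, over the 6369 probe sets that exceeded a signal of 39.4 on at least 3 of the 6 arrays. The Esr2 probe set read 1.3 to 3.2 on the wild-type arrays and 3.9 to 8.4 on the knockout arrays, about the floor, so the labels could not be checked from the targeted gene. Summed over 10 genes that mark slow oxidative fibres, the signal was 50508 to 64877 in wild type and 61831 to 70531 in the knockout. Of these 9 were bright enough to be tested, among them Casq2 at only 77.5 to 119.5. The sum of 10 fast fibre markers was 27499 to 33688 and 31311 to 33030. In a bulk sample like this, fewer cells of a type and less RNA per cell cannot be told apart.

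Long-chain fatty acids are released from circulating triglyceride by lipoprotein lipase, cross the membrane with the help of CD36 and the transport proteins, and travel in the cytosol on a small binding protein. The carnitine shuttle moves the activated acyl group across the inner mitochondrial membrane. There the chain is shortened in repeated rounds of dehydrogenation, hydration, a further dehydrogenation and thiolytic cleavage, and the electrons of the opening step pass through the electron transfer flavoprotein and its dehydrogenase to ubiquinone. Slow muscle such as soleus relies on this route at rest and in posture, and several of its genes are targets of the peroxisome proliferator-activated receptors in fasting.

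No member passed the threshold between knockout and wild type. Of 30 member probe sets tested, covering 25 members, 0 had an adjusted p under 0.05 in limma, adjusted by Benjamini-Hochberg across every probe set tested, and the members' adjusted p ran from 0.923 to 0.998. Over all 6369 probe sets the count was also 0 (0%). At an unadjusted p under 0.05 there were 3 member probe sets, 10% of the 30, where 5.24% of all probe sets reached that level. All 3 were lower in the knockout (2.43% of all probe sets) and 0 were higher (2.81% of all). They belonged to Decr1, Etfa and the second probe set of Gcdh. The count of 3 was 1 without knockout replicate 1, 6 without wild-type replicate 2 and 1 under common median scaling, which shifts all probe sets upward alike. The groups did not overlap for 2 member probe sets, Decr1 and the second of Gcdh, or 6.67% of the members tested. That share was 10.7% over all probe sets, with 5.23% lower and 5.45% higher in the knockout, so the members' share was not above the background.

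The middle of the list lay close to 0 in this fit. The median log2 difference, knockout minus wild type, was -0.033 over the 30 member probe sets, with 19 lower and 11 higher, and -0.015 over the first probe sets of the 25 members tested. Over all probe sets tested the median was -0.016, with 3386 lower and 2983 higher. Most members are bright on this array: 21 of the 30 lay in the brightest 20% of all probe sets tested. Of all probe sets in that range 65.2% were higher in the knockout, with a median of 0.054, and of the 21 members there 8 were higher and 13 lower, with a median of -0.027. A list of 15 mitochondrial genes outside fatty acid oxidation had 11 genes tested, with 7 higher and a median of 0.089. The list was mostly of the citric acid cycle and the respiratory chain, and also held ATP synthase and the transport genes Vdac1 and Slc25a3. The summed signal of its 13 measured genes was 18466 to 19175 on the wild-type arrays and 20037 to 20947 on the knockout arrays. The groups did not overlap in this sum, as was so for 10.7% of single probe sets tested. Bright genes such as Atp5a1 and Mdh2 weigh most in it, and Vdac1 was at or under the floor on all 6 arrays. The single gene of that list with an unadjusted p under 0.05 went the other way: Cycs, cytochrome c, read 421 ± 85.4 and 311 ± 32.7, a difference of -0.42 ± 0.16. Mdh2, malate dehydrogenase, and Uqcrc1, a core subunit of complex III, read higher, by 0.16 ± 0.071 and 0.19 ± 0.091.

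The fibre markers differed in size and direction, with 0 past the adjusted threshold. Of 10 fast fibre markers 7 were higher and 3 lower. At an unadjusted p under 0.05, 4 were higher and 2 lower, where 2.81% and 2.43% of all probe sets were. Myh4, the myosin of the fastest fibres, read 1610, 3671 and 499.4 on the wild-type arrays and 211, 790.7 and 73.8 on the knockout arrays, a difference of -2.64 ± 0.86 and the lowest of all probe sets tested. Actn3, the alpha-actinin of fast fibres, had a difference of -1.48 ± 0.53. Myh4 and Actn3 both read highest on replicate 2 of each group. In a fit with genotype and title prefix, these 2 arrays stood above the other 4 by 2.35 ± 0.51 and 1.23 ± 0.41. The fast marker differences by genotype that lay above 0 were smaller, with 0.42 ± 0.11 for the calsequestrin gene Casq1 and 0.24 ± 0.072 for the troponin gene Tnnt3. Of the 9 slow fibre markers tested 7 were higher, and Myl3 (0.21 ± 0.082) and Tpm3 (0.23 ± 0.099) had an unadjusted p under 0.05. For 4 of the 9, both replicates 2 lay apart from all of the other 4 arrays, where 17.7% of all probe sets did. The part of fibre type or mitochondrial content in the members' values was not tested. These are descriptions, and no test set the fatty acid genes apart from the others.

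**Figure D1:**
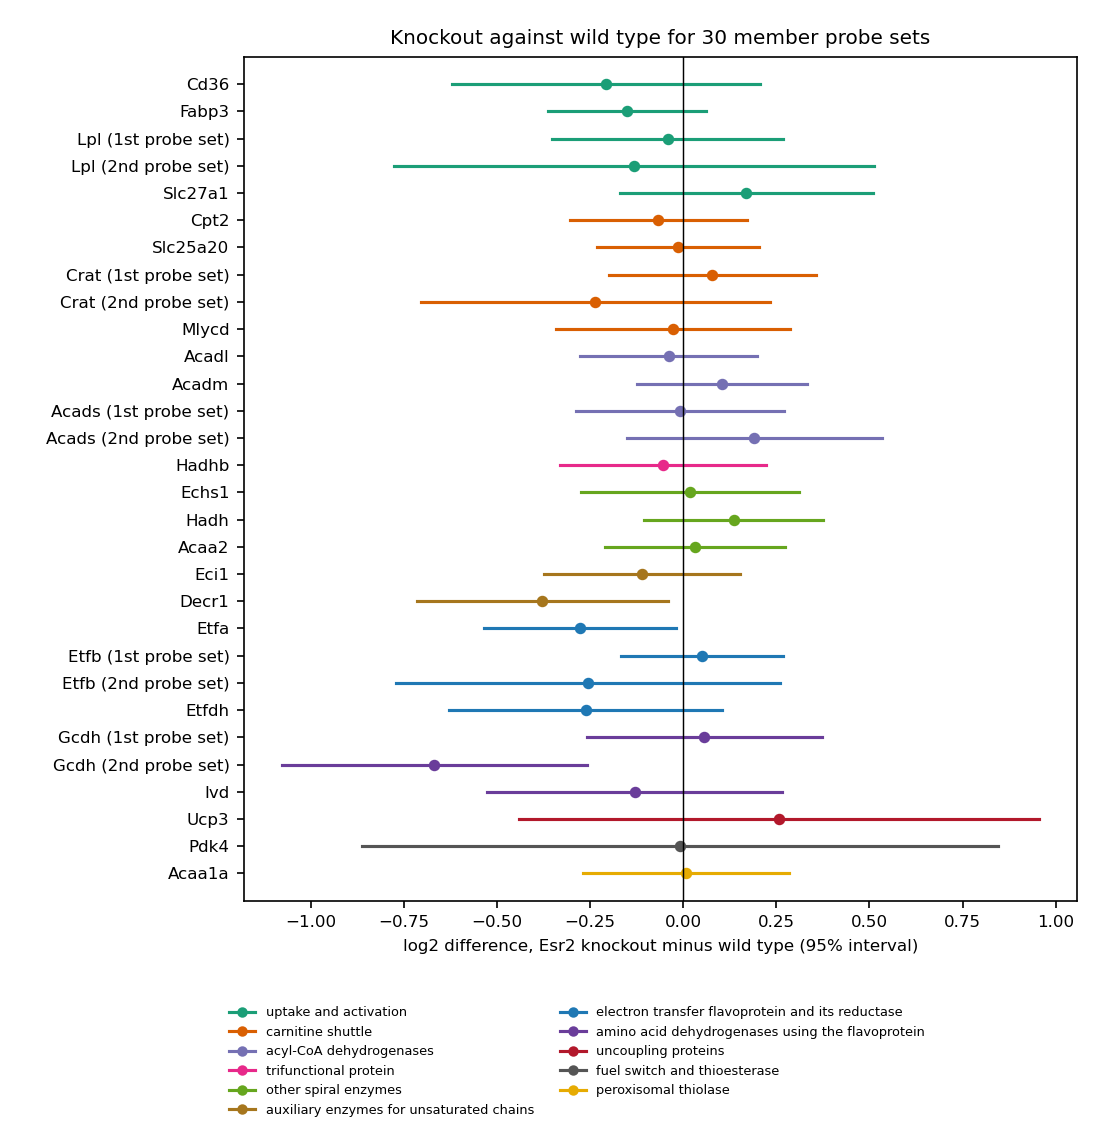
Log2 difference between Esr2 knockout and wild type (horizontal axis) for each of the 30 member probe sets tested, with 95% intervals from limma, n = 3 arrays a group, coloured by step of the route. The intervals of Decr1, Etfa and the second Gcdh probe set lie below 0, and those of the other 27 cross it.

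The uptake genes overlapped between the groups on all 5 probe sets tested. Fabp3 encodes the cytosolic fatty acid binding protein of heart and muscle. It read 4165, 3692 and 4544 on the wild-type arrays and 3652, 3913 and 3582 on the knockout arrays. The highest pair of values was wild type and the groups overlapped through wild-type replicate 2, with a log2 difference of -0.15 ± 0.094 (SE; adjusted p = 0.958 in limma). Cd36, the scavenger receptor that takes up fatty acids in muscle, fat and capillary endothelium, read 185.3, 153.1 and 228.4 on the wild-type arrays and 143.1, 195.7 and 150.4 on the knockout arrays. These values overlapped, and the difference of -0.21 ± 0.18 was within the spread of the replicates. A further probe set of Cd36 read 0.3 to 0.6 on all 6 arrays, far below the floor, and is no measure of the transcript.

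Lpl encodes lipoprotein lipase. Its first probe set read 2618, 2397 and 3428 against 2868, 2403 and 2861, and its second read 504.1, 351.6 and 722.5 against 512.7, 316.2 and 600.2. On both, replicate 2 was the lowest array of each group, and the differences by genotype were -0.042 ± 0.14 and -0.13 ± 0.29. Slc27a1, a fatty acid transport protein, was the only uptake probe set with a positive difference, from 280.0 ± 48.8 to 313 ± 30.1, or 0.17 ± 0.15 on the log2 scale. Over the 5 uptake probe sets tested the median difference was -0.13. Fat cells and capillaries also express Cd36 and Lpl. The 9 adipocyte markers measured summed to between 5001 and 6320 on the wild-type arrays and between 4184 and 6005 in the knockout, and Car3, which muscle itself expresses, made up most of this sum. None of the 9 was at the floor on every array. Among them Adipoq, the adipokine adiponectin, read 81.4, 231.8 and 222.1 on the wild-type arrays and 70.3, 120.1 and 75.8 on the knockout arrays, and 5 of the 7 adipocyte markers tested were lower. The 11 capillary endothelial markers summed to 1423 to 1650 and 1511 to 1614. The part of fat or capillary cells in the uptake values was not tested.

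The carnitine shuttle held tight and loose readings, with within-group log2 SDs from 0.039 for Slc25a20 to 0.31 for the second Crat probe set. Slc25a20, the carnitine-acylcarnitine translocase of the inner membrane, read 653 ± 6.09 on the wild-type arrays and 647 ± 24.4 on the knockout arrays. Its within-group SD of 0.039 on the log2 scale was smaller than that of all but 0.393% of the probe sets tested, and the 95% interval of its difference ran from -0.23 to 0.20. Cpt2, which rebuilds acyl-CoA on the matrix side, read 922.9, 933.6 and 1111 on the wild-type arrays and 944.2, 941.5 and 936.7 on the knockout arrays. Only wild-type replicate 3 stood above the rest, and the difference was -0.067 ± 0.11. The other probe set of Cpt2 read 0.6 to 4.3, below the floor.

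Crat, carnitine acetyltransferase, buffers acetyl-CoA. Its first probe set read 918.6, 826.8 and 1090 on the wild-type arrays and 916.1, 1052 and 1012 on the knockout arrays, and the groups overlapped. The second, of a type that Affymetrix marks as shared by similar sequences, read 153.6, 98.9 and 136.6 against 92.4, 136.3 and 100.9. The differences were 0.079 ± 0.12 and -0.24 ± 0.21, of opposite sign. The first was smaller than its SE and the second slightly larger, and the groups overlapped on both probe sets. Mlycd, malonyl-CoA decarboxylase, removes the inhibitor of the shuttle, and read 582 ± 109 and 565 ± 22.2. Of the 5 shuttle probe sets tested, 4 were lower and the median difference was -0.027.

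The acyl-CoA dehydrogenases open each round of oxidation, 1 enzyme for each range of chain length, and did not separate by genotype. Acadm, the medium-chain enzyme, read 3242, 3540 and 3861 on the wild-type arrays and 3406, 4119 and 3928 on the knockout arrays, with a difference of 0.10 ± 0.10. Acads, the short-chain enzyme, had a pair of probe sets: 233.5, 235.2 and 238.2 against 239.8, 209.5 and 255.7 on the first, and 173.7, 189.3 and 241.9 against 211.8, 229.0 and 244.1 on the second. The groups overlapped on both, with differences of -0.0088 ± 0.12 and 0.19 ± 0.15. The first is of a class for which Affymetrix relaxed its rules of probe choice, and the second is not. Acadl, the long-chain enzyme, read 548 ± 33.6 and 533 ± 23.4. Both probe sets of Acadvl, the very-long-chain enzyme, lay near or under the floor at 0.8 to 8.2, so this gene was not tested.

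The enzymes that finish each round overlapped between the groups too. The trifunctional protein, which joins the last steps for long chains at the inner membrane, was measured through its beta subunit Hadhb alone. Hadhb read 2320, 2540 and 3069 on the wild-type arrays and 2250, 2612 and 2750 on the knockout arrays, overlapping over most of the range (difference -0.054 ± 0.12). Hadh, the dehydrogenase for shorter hydroxyacyl chains, read 1393, 1173 and 1375 against 1362, 1399 and 1565, with a difference of 0.14 ± 0.11. Acaa2, the mitochondrial thiolase, read 3866, 4305 and 3921 against 3561, 4664 and 4203. Echs1, the enoyl-CoA hydratase, read 479 ± 36.5 and 486 ± 67.3. All 3 of Hadh, Acaa2 and Echs1 had differences above 0, with a median of 0.032, but after quantile normalization Echs1 and Acaa2 stood at -0.0025 and -0.016.

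The auxiliary enzymes of unsaturated chains held the largest difference among the members' first probe sets. Decr1, the mitochondrial dienoyl-CoA reductase that handles chains with double bonds, read 235.7, 240.4 and 302.8 on the wild-type arrays and 172.9, 210.7 and 214.7 on the knockout arrays. Each knockout array was below each wild-type array, although the gap between the groups (214.7 to 235.7) was small beside the range within them. The ratio of means was 0.768 and the log2 difference -0.38 ± 0.15 (SE), with an unadjusted p of 0.032 and an adjusted p of 0.923 in limma. Over 19 alternative settings the Decr1 difference ran from -0.47 to -0.26. Eci1, the enoyl-CoA isomerase, read 1245, 1126 and 1412 against 1227, 1047 and 1224. The values of Eci1 overlapped, with a difference of -0.11 ± 0.12.

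The electron transfer genes of beta-oxidation gave unlike values. Etfa, the alpha subunit of the flavoprotein that accepts electrons from the acyl-CoA dehydrogenases, read 1146, 966.5 and 1074 on the wild-type arrays and 803.6, 976.5 and 849.8 on the knockout arrays. Knockout replicate 2 lay just above wild-type replicate 2, and otherwise the groups were apart. The log2 difference was -0.28 ± 0.11 (SE; unadjusted p = 0.037, adjusted p = 0.923 in limma). Etfdh, which hands these electrons to ubiquinone, read 743.3, 502.1 and 732.7 against 551.7, 586.6 and 490.6. Wild-type replicate 2 was again the low one of its group, and the difference was -0.26 ± 0.16. For Etfb, the beta subunit, the probe sets differed in sign. Its first probe set read 1303 ± 86.3 and 1349 ± 72.8, a difference of 0.050 ± 0.097. Its second probe set, near the filter, read 54.4 ± 10.04 and 45.2 ± 4.34, a difference of -0.26 ± 0.23. Over the 4 probe sets of these genes 3 were lower, with a median of -0.26. The alpha and beta subunits form 1 complex, but unequal differences between their probe sets were not tested against each other.

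Etfa and Decr1 had the smallest p-values among the members' first probe sets, and a promoter window was found for Etfa. This window from RefSeq, 250 bases before to 50 after the annotated start, lies on the minus strand of GRCm38.p6 at chr9:55512194-55512493. It is shown with the hexamer AGGTCA, the core recognised by many nuclear receptors, to be set in capitals on either strand, and it holds 0 copies.
Etfa: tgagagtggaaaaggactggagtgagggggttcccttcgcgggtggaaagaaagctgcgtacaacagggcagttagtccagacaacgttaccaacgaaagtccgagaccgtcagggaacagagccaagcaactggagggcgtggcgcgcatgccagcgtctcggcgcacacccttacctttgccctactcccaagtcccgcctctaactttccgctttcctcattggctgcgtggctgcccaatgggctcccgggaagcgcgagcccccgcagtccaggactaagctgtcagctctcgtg

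Promoter windows were found for 22 of the 26 members with a probe set, in 24 windows of 300 bases. The hexamer AGGTCA repeated in the same direction after 1 base, the form bound by peroxisome proliferator-activated receptors, was in 0 of the 24 and in 0.0396% of 32851 windows of all genes. With 1 mismatch allowed it was in 0 of the 24 and in 0.554% of all. The hexamer repeated in the opposite direction after 3 bases, the form bound by estrogen receptors, was in 0 of the 24 and in 0.0213% of all, or 0.143% with 1 mismatch. A single AGGTCA on either strand, searched for after the data were seen, was in 5 of the 24 windows, those of Acadm, Acadvl, Cd36, Echs1 and Ucp3, or 20.8% against 16.3% of all windows. These are matches of letters in a short window, and they do not show where a receptor binds.

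A pair of members uses the same flavoprotein for amino acid breakdown. Gcdh, the glutaryl-CoA dehydrogenase of lysine and tryptophan breakdown, gave opposite answers on its probe sets. The first read 611.6, 578.4 and 558.2 on the wild-type arrays and 731.0, 598.7 and 508.0 on the knockout arrays, with the groups overlapping (difference 0.057 ± 0.14). The second read 107, 95 and 91.7 against 74.2, 51.2 and 61.2, with each knockout array below each wild-type array. Its log2 difference was -0.67 ± 0.18 (SE), with the smallest unadjusted p of the members, 0.0049, and an adjusted p of 0.923 in limma. This difference was not shared by the brighter probe set of the gene, and the second is of a class for which Affymetrix relaxed its rules of probe choice. Ivd, the isovaleryl-CoA dehydrogenase of leucine breakdown, read 343.5, 225.5 and 356.5 against 275.6, 282.4 and 270.3. The knockout arrays of Ivd lay close together, between the low and the high wild-type readings.

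**Figure D2:**
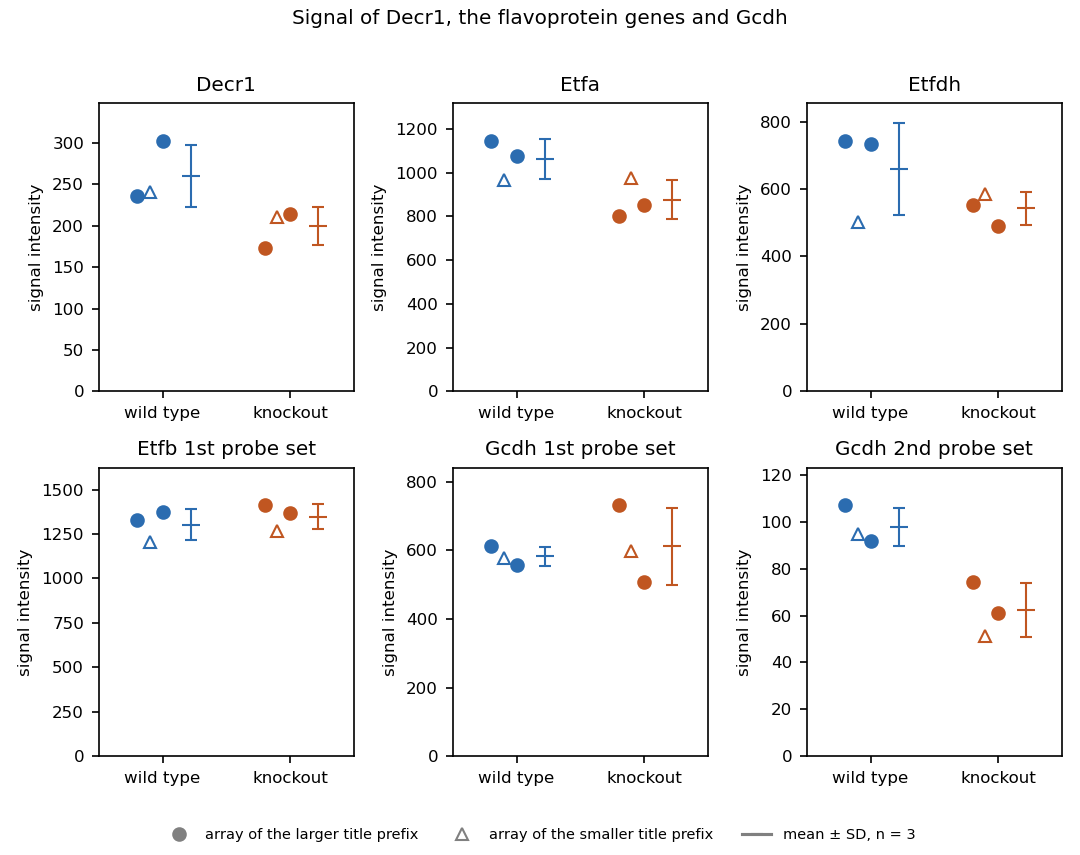
Signal intensity (vertical axis, from 0) of Decr1, Etfa, Etfdh, Etfb and both probe sets of Gcdh on each array, with the mean and SD of 3 arrays a group; open triangles mark the array of each group with the smaller title prefix. Decr1 and the second Gcdh probe set are apart between the groups, while Etfa and Etfdh overlap through wild-type replicate 2.

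Acaa1a, the peroxisomal thiolase for very long chains, varied little over the 6 arrays. It read 206.6, 226.4 and 230.2 on the wild-type arrays and 232.0, 230.9 and 204.5 on the knockout arrays. The difference was 0.0083 ± 0.12, with a 95% interval from -0.27 to 0.28.

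The members that varied most between arrays did so within the groups. Pdk4 encodes the kinase that shuts pyruvate out of the citric acid cycle when fat is burned, and it is induced by fasting. It read 1214, 3424 and 2324 on the wild-type arrays and 2629, 2807 and 1287 on the knockout arrays. Each group thus spanned more than the distance between their means (2321 ± 1105 and 2241 ± 831; SD, n = 3 each), and the highest array was 2.82 times the lowest. Ucp3, the uncoupling protein of muscle mitochondria, is likewise known to be induced in fasting. Ucp3 read 125.8, 299.6 and 219.4 against 271.8, 300.2 and 173.1, with a highest over lowest of 2.39.

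Pdk4 and Ucp3 put the arrays in the same order, from wild-type replicate 1 through knockout replicate 3, wild-type replicate 3 and knockout replicate 1 to the replicates 2, whose order alone differed. Their within-group SDs, 0.69 and 0.54 on the log2 scale, exceeded those of 96.5% and 93.6% of all probe sets tested. Among the probe sets nearest in brightness, taken in equal bins of about 1274, their SDs exceeded those of 99.4% and 98.4%. The log2 differences by genotype were -0.0082 ± 0.38 for Pdk4 and 0.26 ± 0.31 for Ucp3, with 95% intervals from -0.86 to 0.85 and from -0.44 to 0.95; both intervals are wide and hold differences of either sign. Leaving out single arrays moved the Pdk4 difference from -0.41 (without wild-type replicate 1) to 0.35 (without knockout replicate 3), and that of Ucp3 from -0.085 (without wild-type replicate 1) to 0.54 (without wild-type replicate 2).

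The RefSeq promoter windows of these co-varying genes are shown with AGGTCA or its reverse complement in capitals. That of Pdk4 lies on the minus strand of GRCm38.p6 at chr6:5496229-5496528 and holds 0 copies. That of Ucp3 lies on the plus strand at chr7:100472741-100473040 and holds 2, neither of them part of a repeat searched above.
Pdk4: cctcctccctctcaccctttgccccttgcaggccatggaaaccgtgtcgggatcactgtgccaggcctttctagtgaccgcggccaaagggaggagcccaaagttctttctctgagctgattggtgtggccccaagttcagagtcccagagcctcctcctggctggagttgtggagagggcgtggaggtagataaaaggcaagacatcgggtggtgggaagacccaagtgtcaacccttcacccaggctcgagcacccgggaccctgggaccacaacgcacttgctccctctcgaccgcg
Ucp3: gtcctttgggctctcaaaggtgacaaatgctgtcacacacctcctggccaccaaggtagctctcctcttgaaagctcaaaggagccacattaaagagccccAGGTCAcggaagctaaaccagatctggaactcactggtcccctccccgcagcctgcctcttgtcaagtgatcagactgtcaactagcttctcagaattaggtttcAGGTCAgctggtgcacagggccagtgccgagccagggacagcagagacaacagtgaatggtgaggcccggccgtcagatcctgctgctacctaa

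The arrays with the highest Pdk4 and Ucp3 were replicate 2 of each group, the 2 arrays that share the smaller title prefix. This was noticed after the values were seen. Of the 30 member probe sets tested, 8 had both of these arrays above or both below all of the other 4 arrays, or 26.7%, where 17.7% of all probe sets did. Pdk4, Ucp3 and Acaa2 were higher on them, and both probe sets of Lpl, Acadl, Eci1 and the first of Etfb were lower. In a fit with genotype and prefix as terms, the prefix difference was 0.82 ± 0.32 (SE) for Pdk4 and 0.66 ± 0.26 for Ucp3, with an adjusted p of 0.524 each in limma. For Lpl it was -0.29 ± 0.11 on the first probe set and -0.80 ± 0.16 on the second (adjusted p = 0.524 and 0.22). For the prefix 0 member probe sets passed an adjusted p of 0.05, against 1 of all 6369 (0.0157%), and 6 of the 30, or 20%, had an unadjusted p under 0.05, against 9.34% of all.

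**Figure D3:**
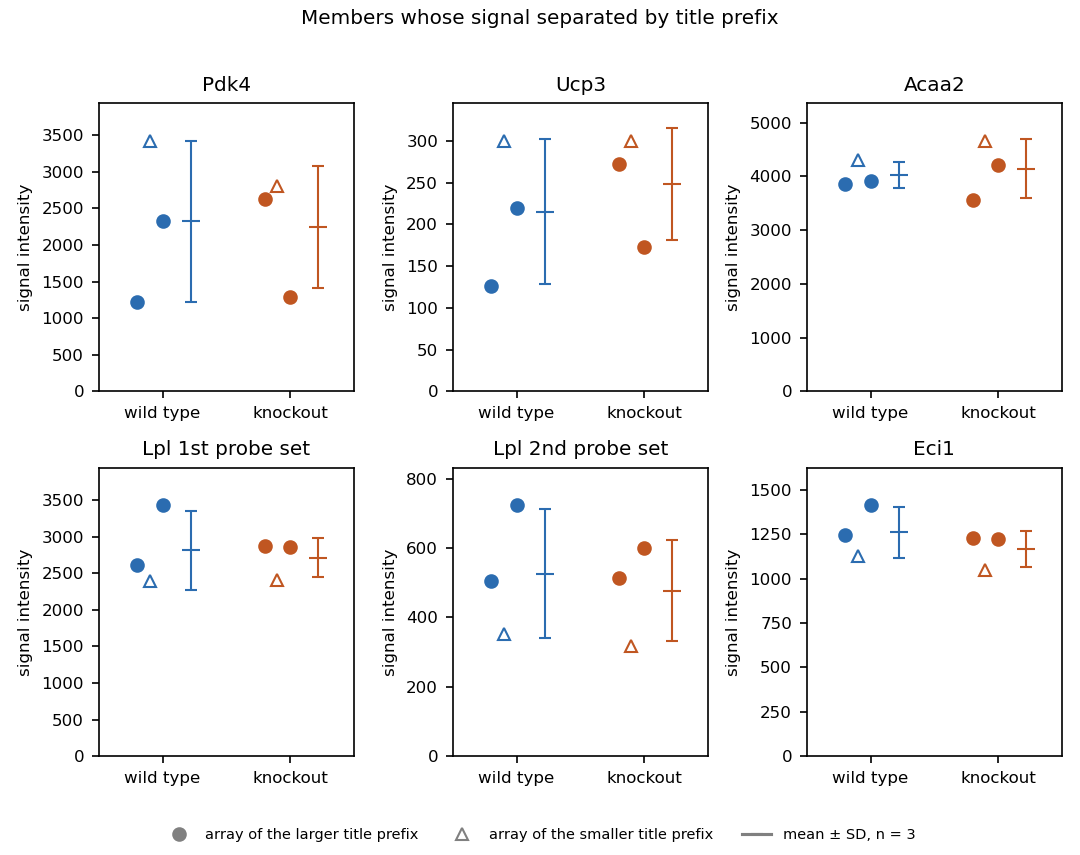
Signal intensity (vertical axis, from 0) on each array for members that separated by title prefix: Pdk4, Ucp3 and Acaa2 above, both Lpl probe sets and Eci1 below, with the mean and SD of 3 arrays a group. The open triangles, replicate 2 of each group, are the 2 highest points of the upper panels and the 2 lowest of the lower panels.

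Within the 4 arrays of the larger prefix more members were lower in the knockout at an unadjusted p under 0.05 than over all 6. With 2 arrays a group, 8 of the 30 member probe sets had an unadjusted p under 0.05, or 26.7%, against 8.90% of all probe sets, and all 8 were lower in the knockout, against 4.35% of all. They were Cd36, Fabp3, the second of Crat, Decr1, Etfa, Etfdh, the second of Gcdh and Ivd. In these 4 arrays the log2 difference was -0.50 ± 0.11 (SE) for Etfdh, -0.42 ± 0.10 for Etfa and -0.59 ± 0.15 for the second Crat probe set, with an adjusted p of 0.469 each in limma. It was -0.49 for Cd36, -0.36 for Ivd and -0.27 for Fabp3. None of the 8 passed the adjusted threshold. This fit leaves out wild-type replicate 2, on which 23 of the 30 lay below the mean of their own group. It keeps wild-type replicate 3, on which 25 lay above it. Leaving out a low wild-type array lowers knockout minus wild type, so the count of 8 depends on which arrays were kept.

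In the remaining array of each group most of these differences had the opposite sign. Between the 2 arrays of the smaller prefix, 1 a group and so without replicates, the log2 difference was 0.22 for Etfdh, 0.015 for Etfa, 0.46 for the second Crat probe set, 0.35 for Cd36, 0.32 for Ivd and 0.084 for Fabp3. Decr1 and the second Gcdh probe set kept their direction there, at -0.19 and -0.89. The directions thus differed between the prefixes for 6 of the 8 probe sets, with Etfa only just above 0. The 8 were picked for a low p in the arrays of the larger prefix alone. Such a pick favours probe sets whose difference is larger there than in the arrays left out. The turned directions are therefore no independent check, and no conclusion is drawn from them. The share of turned directions over all probe sets is not given, and the difference between the prefixes was not tested.

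**Figure D4:**
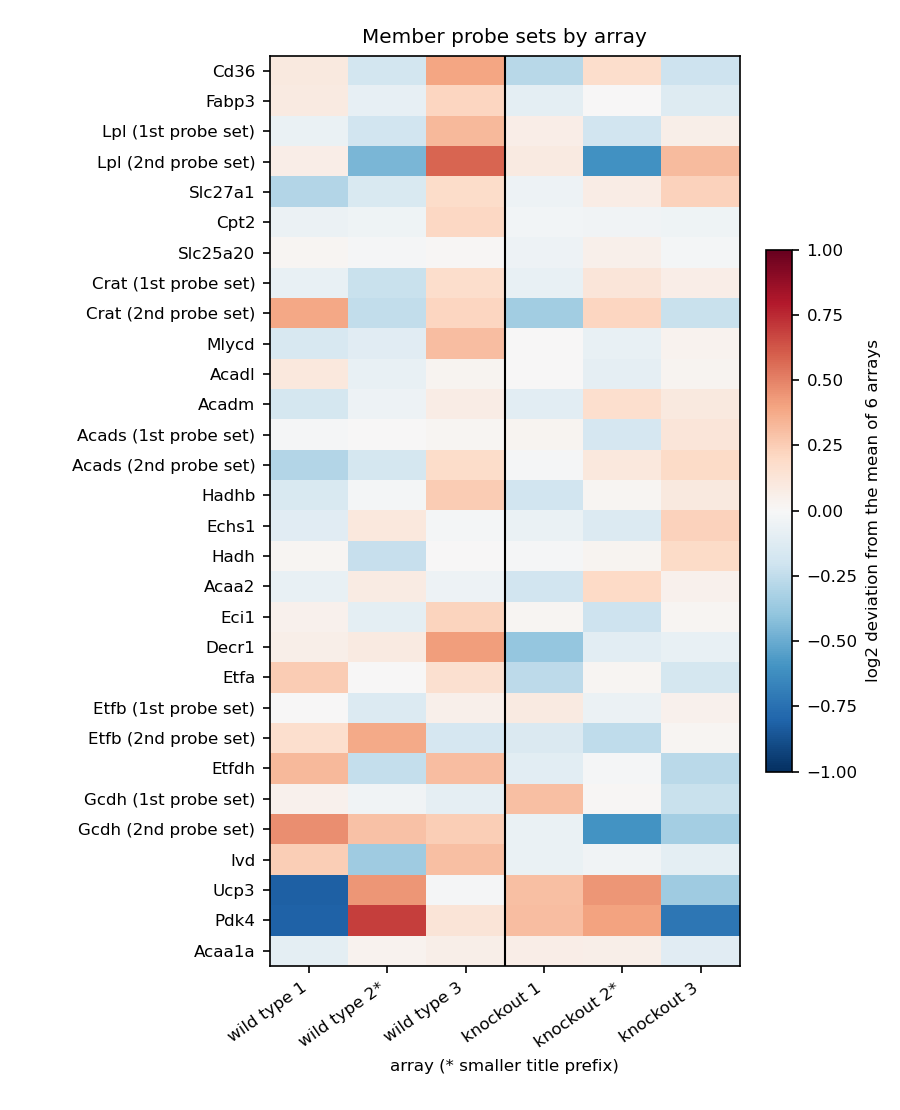
Log2 deviation of each of the 30 member probe sets (rows) from its own mean over 6 arrays, by array (columns), with the colour scale from -1 to 1; stars mark the 2 arrays of the smaller title prefix. Wild-type replicate 3 is red in most rows, and Pdk4, Ucp3 and the second Lpl probe set have the strongest colours.

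The members stood highest on wild-type replicate 3. On that array 25 of the 30 member probe sets were above the mean of their own group, with a median deviation of 0.13 on the log2 scale, while over all probe sets the median deviation of the array was 0.00046. On wild-type replicate 2, 23 were below, with a median of -0.085. On wild-type replicate 1 and the 3 knockout arrays the members' medians lay between -0.013 and 0.029. Without wild-type replicate 3 the median difference over the members turned from -0.033 to 0.017, and 13 rather than 19 of the 30 were lower. Common median scaling adds the same amount to each probe set. It moved the median over all from -0.016 to 0.051 and that of the members to 0.034, which keeps their order by construction. With 1 probe set each, the medians before this scaling were close, at -0.015 for the members and -0.012 for all genes.

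Genes outside the list that control or surround the route were read from 2 further lists. Of 28 regulators named, among them receptors, coactivators and kinase subunits, 16 had a probe set and 11 were tested. Of these 10 were higher and 1 lower in the knockout, with a median of 0.088, where 46.8% of all probe sets tested were higher. Some of the 10 were near 0 beside their SE, such as Rxrb (0.044 ± 0.23) and Rxrg (0.0032 ± 0.89). In either direction 0 passed, at the adjusted threshold or at an unadjusted p under 0.05. Ncoa1, a coactivator of nuclear receptors, read 89.8, 56.2 and 85.8 on the wild-type arrays and 62.2, 54.2 and 52.8 on the knockout arrays. Sirt3, the mitochondrial deacetylase, read 75.1, 58.0 and 70 against 77, 77.2 and 92.2, and Esrra, estrogen-related receptor alpha, 426 ± 42.8 and 493 ± 69.3. Ppara, the receptor that drives fatty acid oxidation, was named after its values were seen and read 193 ± 49.9 and 201 ± 21.2.

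Of 68 other lipid fuel genes, 46 had a probe set and 35 were tested, with 15 higher, 20 lower and a median of -0.018. Here too 0 passed in either direction at the adjusted threshold or at an unadjusted p under 0.05. Angptl4, a secreted inhibitor of lipoprotein lipase, read 69.0, 96.0 and 77.1 against 77.2, 37.9 and 50.2, a difference of -0.60 ± 0.27. Pdk1, another pyruvate dehydrogenase kinase, read 206.2, 197.1 and 231.2 against 252.3, 232.1 and 259.8, and Hsd17b10, a hydroxyacyl dehydrogenase of branched chains, 311.4, 306.2 and 303.3 against 277.8, 259.6 and 263.0. Each group of Hsd17b10 was tight and the 2 were apart, at a difference of -0.20 ± 0.11. Cpt1a, the liver form of the carnitine palmitoyltransferase, was picked after its values were seen: it read 53.2, 108.8 and 76.5 against 62.0, 90.8 and 43.0, so that its 2 highest arrays were those of the smaller prefix. In this list 8 of the 35 genes tested separated by prefix, where 17.7% of all probe sets did. Of the 8, 6 were lower on those arrays, such as Oxct1 and Abcd3, with Cpt1a and Gpam higher.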

How the data were processed

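Total RNA of soleus was measured on Affymetrix mouse arrays, 1 per sample, 3 wild-type and 3 Esr2 knockout. The values are signal intensity as the authors deposited it, linear and on a common level (the mean trimmed of 2% at each end was 100.07 to 100.08). The software, detection calls and genome build are not given in the sources used here. After 66 control probe sets were set aside, symbols came from the annotation table of the array (10833 probe sets with 1 symbol, 396 with several, 1193 with none).

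Values below the 20th percentile, 7.8, were set to it and log2 was taken. The 6369 probe sets above 39.4, the overall median, on 3 or more arrays entered limma 3.58.1 (R 4.3.3; lmFit, then eBayes with trend; two-sided), and p-values were adjusted by Benjamini-Hochberg across all of them. Precision is limited by the number of arrays, with a median SE of 0.18 for a log2 difference. The smallest p of an exact permutation test with 3 arrays a group is 0.1, so none is given. The fit was tried on simulated arrays with independent noise and no title prefix pattern. This does not show how often a true difference of a member would be missed. Figures were drawn with matplotlib 3.10.9.

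Members, lists and tests were chosen with earlier results of these data known. Every member is named; values by array are given for the 2 members of smallest p in each step and for those with a p under 0.05 or groups apart, means for the rest; Lpl by array, Ppara and Cpt1a were added after their values were seen. Outside the members, the 3 genes of smallest p in the regulator and lipid fuel lists are named. Some marker genes are named too, although no marker list was tested for a difference between the groups. Lone AGGTCA matches and the comparison by title prefix were also added after the data were seen. Alternatives were 3 normalizations, other floors and filters, eBayes without trend or robust, array weights, 2 blocks, the 4 arrays of 1 prefix, and each array left out.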

Additional observations from a re-analysis of the deposited data

How the results depend on the processing

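Under 19 alternatives 0 member probe sets passed the adjusted threshold in limma, and the smallest adjusted p of a member was 0.469, in the fit of the 4 arrays of 1 prefix. Of 569 member values under these alternatives, 521 kept their direction and 48 turned, 25 of them with an array left out and 8 through common median scaling, which adds 0.067 to each probe set and so turns by construction any difference just below 0. The other alternatives gave 40 turns. The median over the members ran from -0.085 (without wild-type replicate 1) to 0.017 (without wild-type replicate 3) when arrays were left out, and was -0.093 after quantile normalization and -0.12 after cyclic loess. Over all probe sets 1 passed without the filter, 1 with adjacent title numbers as a replicate block and 0 to 1 with an array left out, and none of these was a member. The labels do not say that adjacent title numbers pair mice. With that block 0 members passed.

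Quantile normalization turned Echs1 (-0.0025), Acaa2 (-0.016) and the first of Etfb (-0.0022). By that shift alone, common median scaling turned the first of Lpl (0.025), Cpt2 (0.00033), Slc25a20 (0.052), Mlycd (0.040), Acadl (0.028), the first of Acads (0.059), Hadhb (0.013) and Pdk4 (0.059). Cyclic loess turned Acadm (-0.034), Echs1 (-0.019), Acaa2 (-0.11) and the first of Etfb (-0.038). Array weights turned Mlycd (0.0089), the first of Acads (0.043) and Acaa1a (-0.0028). In the 4 arrays of 1 prefix the first of Crat (-0.056), the first of Acads (0.070), Acaa2 (-0.0093), Pdk4 (0.13) and Acaa1a (-0.0018) turned.

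With single arrays left out, the difference ran from -0.15 to 0.11 for the first of Lpl and from -0.39 to 0.14 for the second. It ran from -0.11 to 0.019 for Cpt2, from -0.045 to 0.0075 for Slc25a20, from -0.013 to 0.19 for the first of Crat and from -0.11 to 0.12 for Mlycd. For Acadl it ran from -0.085 to 0.0035, for the first of Acads from -0.072 to 0.072, for Hadhb from -0.14 to 0.059, for Echs1 from -0.093 to 0.090 and for Acaa2 from -0.058 to 0.14. For the first of Etfb it ran from -0.0040 to 0.094, for the first of Gcdh from -0.078 to 0.18, for Ucp3 from -0.085 to 0.54, for Pdk4 from -0.41 to 0.35 and for Acaa1a from -0.040 to 0.068. The cause of these turns was not tested.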
